A study of Rattus norvegicus and Mus musculus with 10 samples.

Results

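Granulocytes of the rat were taken as the cells that the authors' deposited annotation assigns to the cluster granulo. They numbered 138 of 21187 annotated rat cells. All rats were naive Lewis animals, with no allele, transgene or agent named in the labels, and their age is not given in the sources used here. Immune cells were profiled by droplet single-cell RNA sequencing from 6 compartments: the dura mater (the outer meningeal layer under the skull), the cerebrospinal fluid (CSF), the pia mater (the inner layer on the brain surface), the choroid plexus, the central nervous system (CNS) tissue and the blood. Dura, pia, choroid plexus and CNS yielded CD45-positive cells that a second CD45 antibody, injected into the circulation to mark cells inside vessels, had left unstained. CSF cells were not sorted, and blood cells were collected from the interface of a density gradient. The study used 25 rats, and the number pooled into each library is not given in the sources used here. With 1 library per compartment there was no replicate check on any difference between compartments, and compartment and library cannot be told apart. Cells of a library are not replicates, so no test was run and every interval given is a 95% interval that covers counting error only.

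Granulocytes are mostly neutrophils, short-lived phagocytes made in the bone marrow, including the marrow of the skull. While they mature they fill their granules in order: primary granules with defensins and proteases, then secondary granules with antimicrobial proteins such as Ngp, cathelicidin (Camp) and lipocalin 2 (Lcn2), then late granules with metalloproteinases. The factor C/EBP epsilon (Cebpe) drives the secondary granule genes, and transcripts of granule proteins decline in the mature cell. Neutrophils also respond to type I interferon, which induces Isg15 and the Ifit and Oas families. In a density gradient most granulocytes pass below the interface, so interface cells hold few of them.

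The cluster made up 0.727% of annotated dural cells (36 of 4953, exact Clopper-Pearson interval 0.510% to 1.005%) and 2.57% of annotated CSF cells (81 of 3152, 2.05% to 3.18%). It was rarer elsewhere, at 0.124% in pia (5 of 4039), 0.132% in choroid plexus (3 of 2272), 0.0278% in CNS (1 of 3599) and 0.378% in blood (12 of 3172). The sort of 4 compartments, the unsorted CSF and the blood gradient can each set these shares. Dura and CSF, with at least 20 such cells, are described below gene by gene, and the other compartments as single values. The granulocytes held 81751 unique molecular identifiers (UMIs, counted RNA molecules) in dura and 100613 in CSF, with medians of 1541.5 and 1018 UMIs per cell. The lowest annotated cell held 500 UMIs in dura and 839 in CSF, so the floor for cells differed between the libraries. The CSF library stood apart from the others in another way: ribosomal protein genes took 36.7% of the UMIs of its CD4 T cells (cluster CD4 Tc), against 20.6% in dura and 22.1% to 26.3% in the other compartments. Of 138 granulocyte barcodes, 1 had a barcode sequence that also occurred in another rat library.

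The marker genes S100a9, S100a8, Ngp, Camp, Retnlg and Mmp8 were all present in the cluster in dura, CSF, pia and choroid plexus. The single CNS cell held S100a9 and S100a8 but 0 UMIs of the other 4, and the blood cells held S100a9, S100a8 and Camp but 0 UMIs of the other 3. Levels are given as CPM, the UMIs of a gene over all UMIs of the summed cells of a group, scaled to 1000000. Together the 6 markers took a median of 49.6% of the UMIs of a dural granulocyte (1.85% to 66.2%) and 15.7% of those of a CSF granulocyte (0% to 51.7%). The medians were 57.2% in pia and 56.0% in choroid plexus, 11.5% in the CNS cell and 0.328% in blood. At least 10% of UMIs came from the markers in 33 of 36 dural, 54 of 81 CSF, 5 of 5 pial and 3 of 3 choroid plexus cells, and in 0 of 12 blood cells. S100a9, a subunit of calprotectin, stood at 315140 CPM in dura, 120080 in CSF, 334020 in pia, 315140 in choroid plexus, 87137 in CNS and 3674 in blood. Blood is therefore the compartment in which the data go against the cluster name. Genes of eosinophils were absent outside CSF, where 3 of 81 cells held Ccr3, and genes of basophils and mast cells were found in 1 dural and 1 CSF cell.

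**Figure D1:**
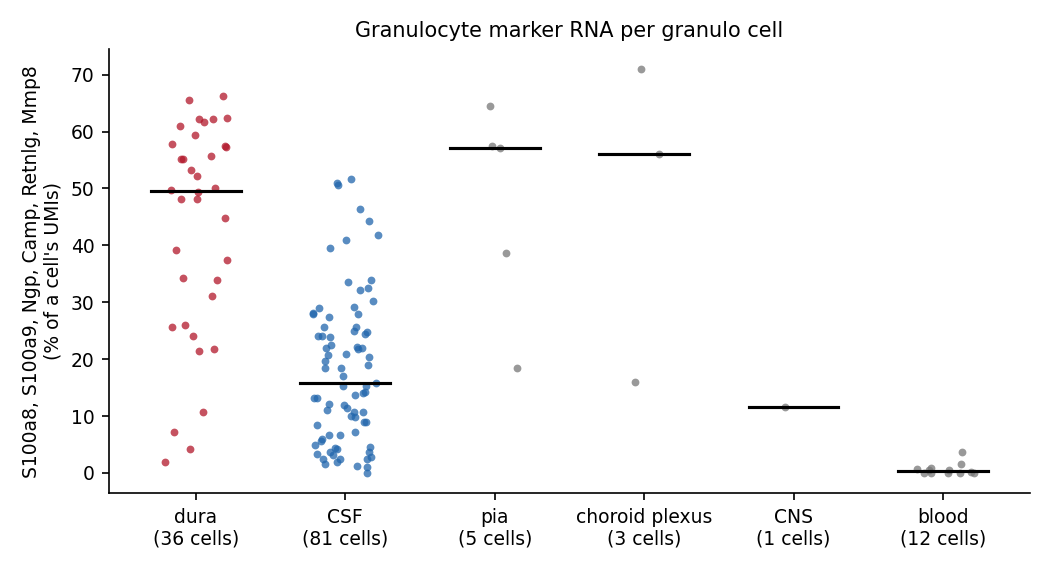
Percent of each granulo cell's UMIs from the 6 marker genes, by compartment, with 1 point per cell and a bar at the median. The medians were 49.6% in dura and 15.7% in CSF, and every blood cell lay at or below 3.65%.

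Dural granulocytes held far more RNA of secondary granule proteins than CSF granulocytes, and CSF granulocytes far more RNA of type I interferon response genes. The mitochondrial share of UMIs, a sign of RNA quality, moved with the groups, with a median of 1.41% in dural and 7.23% in CSF granulocytes, against 5.56% and 5.69% in the other cells of these libraries, and its part was not tested. Of 803 genes with at least 20 UMIs over both groups, 87 were at least 2-fold higher in dura (10.8%) and 317 at least 2-fold lower (39.5%), with a median log2 ratio of -0.64. S100a8 and S100a9 take a large share of dural RNA and so lower the level of all other genes. With the ratios centred on the median gene the split was 167 higher and 184 lower. Genes of the dura and CSF libraries also differed in unrelated cells: 97 of 3861 genes measured in 4 other clusters (CD4 Tc, NK, myeloid1 and myeloid3) were at least 4-fold lower in dura in all 4, among them 21 ribosomal protein genes, and 89 were at least 4-fold higher. Of the 317 genes lower in dural granulocytes 47 were shifted that way, and of the 87 higher ones 4 were. Of all 803 genes tested in granulocytes 703 were measured in all 4 clusters. Without the genes shifted either way in all 4, 750 of the 803 were left. Against the CD4 T cells alone, 41 of the 64 higher genes that could be measured there were also at least 2-fold higher in dural CD4 T cells, and 73 of the 297 lower genes were also at least 2-fold lower. The share of all tested genes that differed in CD4 T cells was not counted, so these overlaps have no background beside them. The part of these library differences in the granulocyte values was not tested.

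Of the 8 secondary granule genes listed, 7 reached the 20 UMIs needed to be measured, 6 were at least 2-fold higher in dura and 0 lower, with a median log2 ratio of 3.84. Among all 803 genes tested 10.8% were higher and 39.5% lower, with a median of -0.64. Ngp, a cathelin-related granule protein, stood at 36880 CPM in dura and 119 in CSF, a 309-fold difference (interval 177 to 599). Camp, the cathelicidin precursor, stood at 32905 in dura and 1352 in CSF (24.3-fold, 20.5 to 29.1). Camp was the broader of the pair in CSF, with a UMI in 28 of 36 dural and 27 of 81 CSF cells, whereas Ngp was found in 17 of 36 dural and 3 of 81 CSF cells. Lcn2, which binds bacterial iron carriers, stood at 2593 CPM in dura and 9.94 in CSF, where it rested on a single UMI (261-fold, 46.3 to 10354). Olfm4 stood at 2275 and 159 CPM in dura and CSF (14.3-fold), Hp, haptoglobin, at 2361 and 487 (4.85-fold), and Cd177, a neutrophil surface protein, at 391 and 49.7 (7.88-fold). The exception was Chi3l1, a chitinase-like protein, at 1272 CPM in dura and 1749 in CSF, a difference whose sign turned when the ratios were centred on the median gene. In myeloid3 cells of these libraries Hp stood at 1022 CPM in dura and 173 in CSF. That is a log2 ratio of 2.56, against 2.28 in granulocytes. Camp and Chi3l1 were also measured in myeloid3, with log2 ratios of 0.25 and -0.91, against 4.61 and -0.46 in granulocytes.

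The defensins, products of the primary granule, were found in dura alone of this pair. RatNP-3b stood at 4355 CPM in dura and had 0 UMIs in CSF, at least 146-fold higher against a floor of 3 UMIs over the CSF group. Defa7 stood at 722 CPM in dura and 0 in CSF, at least 24.2-fold higher. These were the 2 measured genes of 10 listed. Of the 7 other primary granule genes listed, Mpo, Prtn3, Ctsg and Bpi had 0 UMIs in dura and in CSF, Elane had 1 in each, and Ms4a3 had 3 in dura and 0 in CSF. Serpinb1a, an inhibitor of neutrophil proteases, stood at 1566 CPM in dura and 229 in CSF (6.85-fold, 4.37 to 11.2). Ltf, the secondary granule protein lactoferrin, had 0 UMIs in dura and 1 in CSF. Cebpe stood at 428 CPM in dura and 9.94 in CSF, again 1 UMI (43.1-fold, 7.24 to 1749). The related factor Cebpd was lower, at 61.2 CPM in dura and 477 in CSF.

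The promoters of granule genes that differed most are shown because C/EBP factors are their known regulators. Each run gives the 250 bases before the start site in RefSeq's GRCr8 assembly, 5′ to 3′ on the gene's strand, with matches to TTGCNNAA, or TTNNGCAA on the other strand, in capitals. Such a match was present in 9.22% of 33469 promoters of this length. The Ngp window (chr8:119272355-119272604, plus strand) held 2 matches, those of Lcn2 (chr3:36081781-36082030, minus strand) and RatNP-3b (chr16:77248978-77249227, minus strand) 1 each, and that of Camp (chr8:118721999-118722248, minus strand) 0. Over the secondary granule list, 2 of 7 promoters in the table held a match.
Ngp: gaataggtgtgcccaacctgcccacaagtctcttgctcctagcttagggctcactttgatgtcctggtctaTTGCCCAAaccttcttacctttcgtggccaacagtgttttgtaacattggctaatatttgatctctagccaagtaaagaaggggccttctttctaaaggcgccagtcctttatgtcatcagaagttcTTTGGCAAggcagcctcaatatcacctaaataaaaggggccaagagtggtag
Camp: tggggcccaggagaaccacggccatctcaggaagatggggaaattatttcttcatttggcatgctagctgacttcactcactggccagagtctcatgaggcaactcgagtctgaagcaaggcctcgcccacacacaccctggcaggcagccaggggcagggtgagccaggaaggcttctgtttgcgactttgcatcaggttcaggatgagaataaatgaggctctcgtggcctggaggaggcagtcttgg
Lcn2: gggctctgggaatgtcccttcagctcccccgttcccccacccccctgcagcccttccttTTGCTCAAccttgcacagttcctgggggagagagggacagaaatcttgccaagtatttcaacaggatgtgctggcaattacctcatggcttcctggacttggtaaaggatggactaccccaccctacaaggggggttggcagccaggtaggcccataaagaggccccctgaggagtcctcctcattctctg
RatNP-3b: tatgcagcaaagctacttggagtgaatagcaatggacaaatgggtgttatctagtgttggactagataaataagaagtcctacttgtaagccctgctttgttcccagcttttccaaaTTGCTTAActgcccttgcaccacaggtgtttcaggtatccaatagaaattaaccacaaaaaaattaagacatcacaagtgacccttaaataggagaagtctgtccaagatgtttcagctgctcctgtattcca

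Genes of later stages had smaller ratios. Retnlg, a resistin-like protein of mature neutrophils, stood at 4135 CPM in dura and 2197 in CSF (1.88-fold, 1.58 to 2.24), with a log2 ratio between 0.34 and 2.21 over the alternatives tried. Mmp8, the neutrophil collagenase, stood at 1456 in dura and 1312 in CSF (1.11-fold, 0.859 to 1.43), an interval that includes equal levels, and its log2 ratio lay between -0.39 and 0.95 over the alternatives tried. Mmp9, a gelatinase of late granules, stood at 416 CPM in dura and 179 in CSF (2.32-fold). Of 14 listed genes of the mature neutrophil 8 were measured, 2 of them at least 2-fold higher in dura and 2 lower, with a median log2 ratio of -0.03. Over all 803 genes tested 10.8% were higher and 39.5% lower, with a median of -0.64. G0s2 was higher, at 1089 CPM in dura and 537 in CSF, and Trem1, an activating receptor, at 367 and 109. Clec4d, a C-type lectin receptor, was lower, at 245 CPM in dura and 517 in CSF.

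Of 6 subunits of the phagocyte NADPH oxidase, which makes superoxide, 5 were measured, 4 of them at least 2-fold higher in dura and 0 lower. Their median log2 ratio was 1.08, against -0.64 over all 803 genes tested, of which 10.8% were higher and 39.5% lower. Cybb, its catalytic subunit, stood at 526 CPM in dura and 49.7 in CSF (10.6-fold, 4.20 to 34.2), and its partner Cyba at 1921 and 696 (2.76-fold). In the CD4 T cells of these libraries Cyba stood at 647 CPM in dura and 207 in CSF and Cybb at 22.7 and 7.76, log2 ratios of 1.64 and 1.55, against 1.46 and 3.40 in granulocytes. The other 2-fold calls were narrow, Rac2 at 2.02-fold (1.49 to 2.74) and Ncf1 at 2.11-fold (1.05 to 4.41), from 24 UMIs in dura and 14 in CSF. The cytosolic subunit Ncf4 was the exception, at 318 CPM in dura and 517 in CSF. The calprotectin pair was higher in dura, S100a9 by 2.62-fold (2.57 to 2.68) and S100a8 by 1.86-fold. In other cells of these libraries the log2 ratio of S100a9 was 1.07 in CD4 Tc, 2.69 in NK, 0.02 in myeloid1 and 3.11 in myeloid3. It was 1.39 in granulocytes. For S100a8 the ratios in the same order were 0.98, 1.69, -1.06 and 2.68, against 0.90 in granulocytes. S100a11 stood at 3303 CPM in dura and 1690 in CSF granulocytes (1.95-fold). S100a4, S100a6 and S100a10 were lower, with S100a4 at 0 CPM in dura and 268 in CSF and S100a6 at 48.9 and 427.

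**Figure D2:**
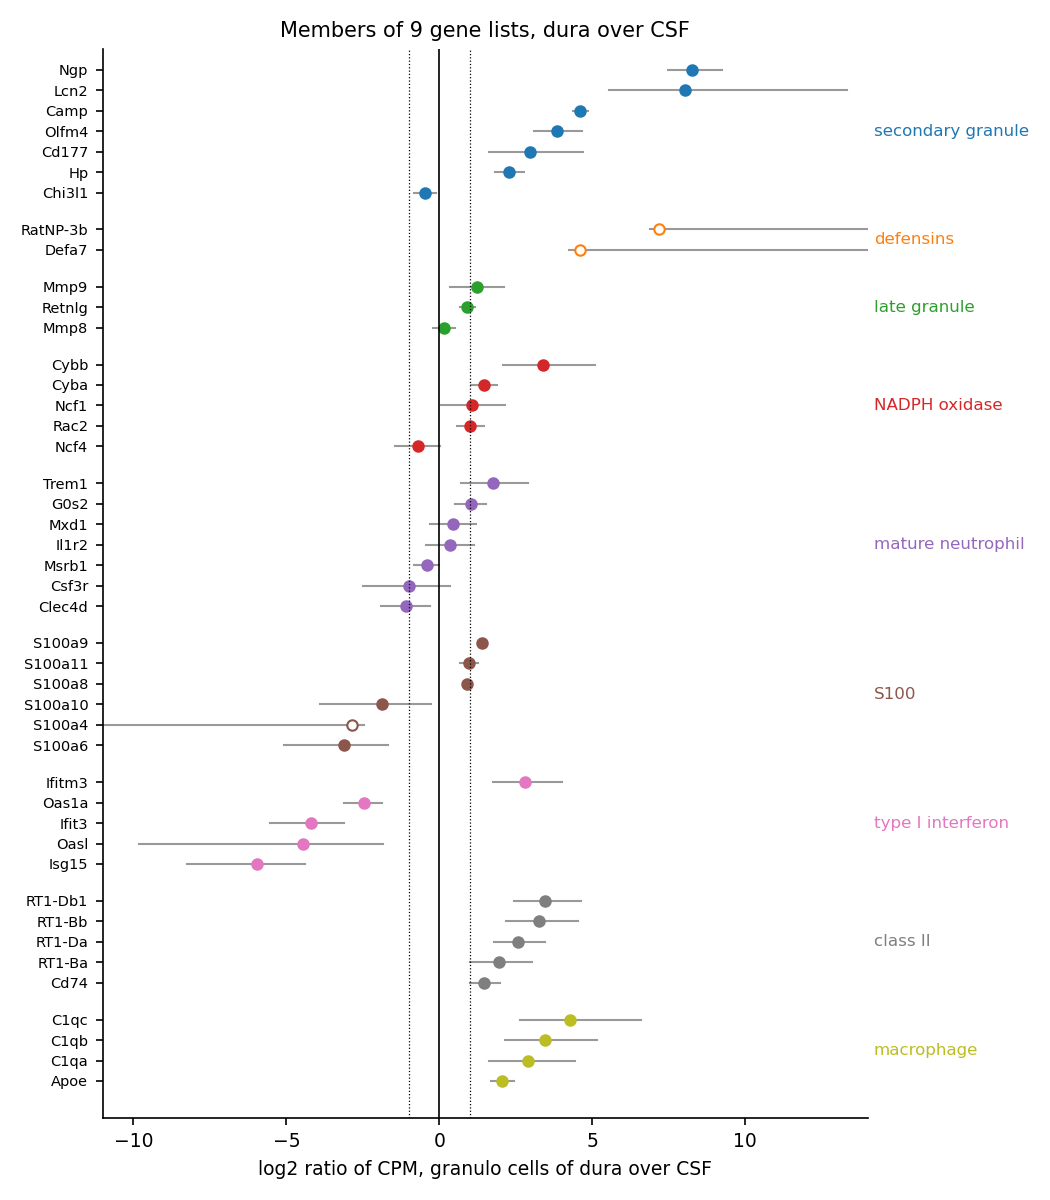
Log2 ratio of dura over CSF granulocytes for measured genes of 9 lists, with 1 point per gene, lines for the 95% counting interval, open points for a bound where a side held 0 UMIs, and dotted lines at 2-fold. Secondary granule genes lie to the higher side with a median of 3.84, and type I interferon genes to the lower side with a median of -4.20.

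Dural granulocytes were unlike each other. When the 36 cells were ordered by the share of their UMIs from Ngp and Camp, the 12 cells highest in that share held 4.00% to 18.7% (median 10.6%), the 12 middle cells 0.270% to 2.96% and the 12 lowest 0% to 0.247%. These are ranges of a continuous share, not types. The 12 highest cells also held more RNA, with a median of 4083.5 UMIs, against 1098 in the middle and 835.5 in the lowest cells, and gave 65.1% of all dural granulocyte UMIs. Their share of Retnlg and Mmp8 was low, with a median of 0.0847%, against 2.31% in the middle and 0.690% in the lowest cells. Retnlg itself stood at 113 CPM in the highest, 15090 in the middle and 8432 in the lowest cells. RatNP-3b stood at 6691 CPM in the highest cells and 0 in both other groups, and Lcn2 at 3815, 656 and 0. The 12 highest cells also held 38 of 43 dural Cybb UMIs and 34 of 35 for Cebpe. For Serpinb1a they held 117 of 128 and for Ifitm3 46 of 51, so the dural levels of these genes rest mostly on them. G0s2 ran the other way, at 188 CPM in the highest, 3864 in the middle and 1754 in the lowest cells. Depth moved with this order, and its part in the result was not tested.

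Some of the lowest 12 dural cells also held RNA known from macrophages and antigen-presenting cells. Of the 421 macrophage list UMIs in dural granulocytes 182 lay in 1 cell, and of the 375 class II UMIs 187 lay in 1 cell, each among these 12. The first of these cells took 7.16% of its UMIs from the 6 markers and the second 10.7%. The 3 dural cells with under 10% marker UMIs were all among these 12, so the low end of the order includes cells with few granulocyte markers. Apoe stood at 451 CPM in the highest, 1094 in the middle and 16055 in the lowest cells, and Cd74, the class II invariant chain, at 207, 583 and 6611. Across the 36 cells Spearman's rho of the Ngp and Camp share with the Retnlg and Mmp8 share was -0.30, and with UMIs per cell 0.66. Across the 81 CSF cells the first of these was 0.60 and the second 0.33. All cells of a set come from 1 library, and both shares have the same total beneath them.

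**Figure D3:**
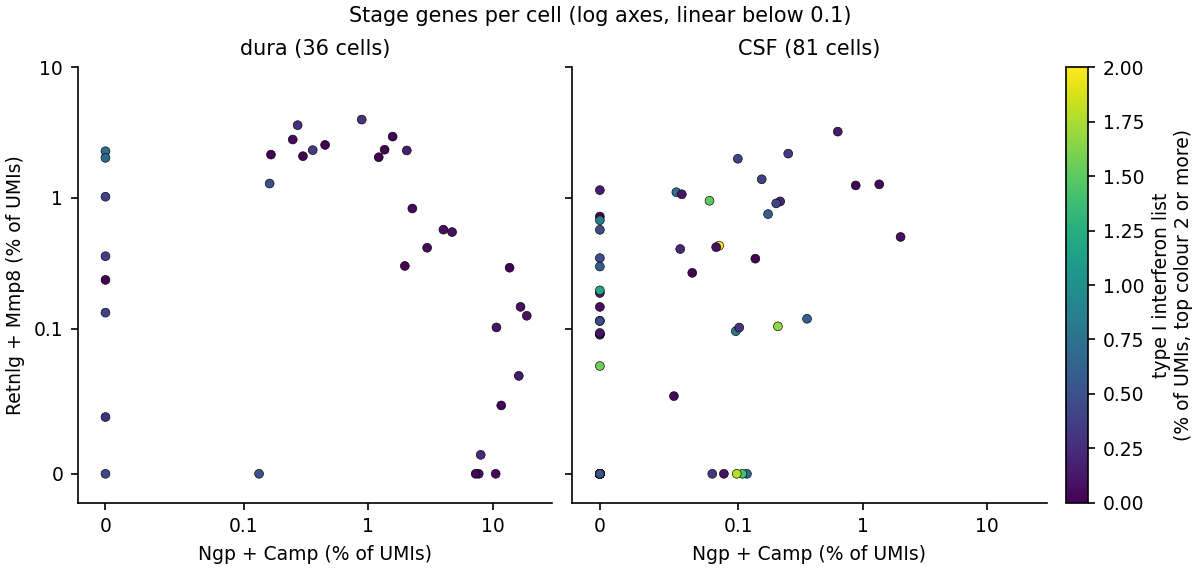
Share of each granulocyte's UMIs from Ngp and Camp against its share from Retnlg and Mmp8, 1 point per cell, on log axes that turn linear near 0, with colour for the share of type I interferon genes. Shares of at least 4% from Ngp and Camp were found in 12 dural cells and in 0 CSF cells, and 1 dural cell and 38 overlaid CSF cells lie at 0 on both axes.

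The few pial and choroid plexus cells lay within the dural range of the Ngp and Camp share. The 5 pial cells had 13.8%, 10.8%, 8.54%, 0.906% and 0% of their UMIs from Ngp and Camp, and the 3 choroid plexus cells 8.58%, 5.36% and 0%. The pial cell at 0.906% held 8.01% from Retnlg and Mmp8, above the highest dural share of 3.98%. Of 19 genes of dividing cells in the files, 6 had a UMI in dural granulocytes, 41 UMIs in all, and 4 in CSF granulocytes, 24 UMIs in all. A single dural cell, among the 12 highest in Ngp and Camp, held 25 of the 41. Stmn1, a tubulin-binding protein, stood at 220 CPM in dura and 109 in CSF (2.01-fold, 0.901 to 4.72), while Mki67, Top2a and Cdk1 had 0 UMIs in both.

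The differences in share of cells were compared at equal depth by thinning every cell to 500 UMIs. A UMI of Ngp or Camp was then found in 74.4% of dural granulocytes (57.1% to 87.4%) and 20.4% of CSF granulocytes (12.2% to 30.8%), and in 77.8% and 34.6% without thinning. In CD4 T cells, which should lack these genes, the thinned shares were 0.824% in dura and 0.0100% in CSF, with medians of 1376 and 2043 UMIs per cell. Retnlg or Mmp8 was found in 69.5% of dural and 37.7% of CSF granulocytes after thinning, and in 86.1% and 46.9% before. At 1000 UMIs, which 24 of 36 dural and 45 of 81 CSF cells reached, these shares were 73.8% (52.0% to 89.4%) and 62.1% (46.5% to 76.2%). Isg15 or Ifit3 ran the other way, in 10.0% of dural (2.55% to 24.7%) and 60.0% of CSF granulocytes (48.5% to 70.7%), and in 13.9% and 74.1% without thinning. In CD4 T cells Isg15 or Ifit3 was found in 1.47% in dura and 1.62% in CSF.

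**Figure D4:**
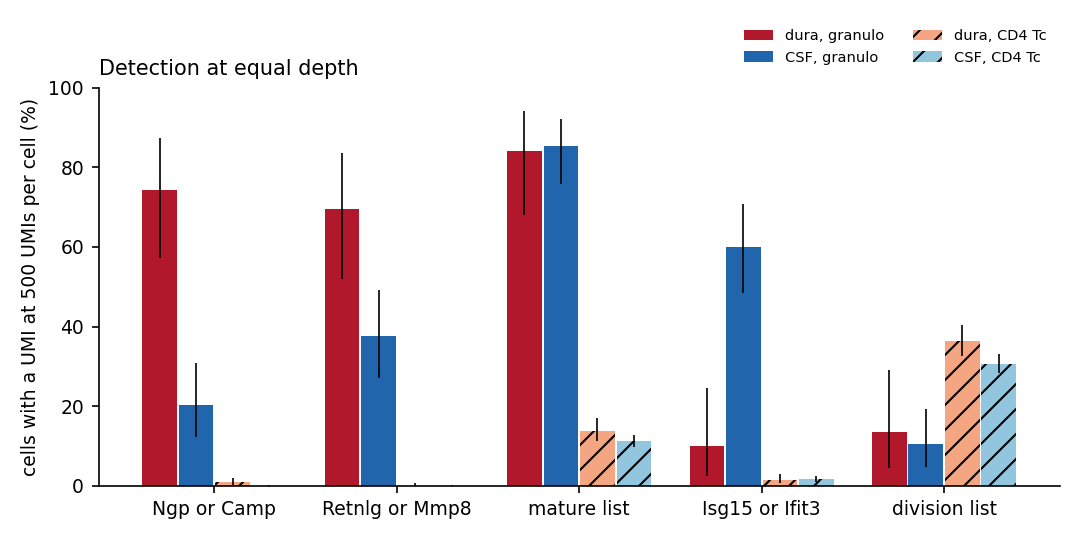
Percent of cells with a UMI of the named genes after thinning every cell to 500 UMIs, or of the mature neutrophil or cell division list, for granulocytes and CD4 T cells of dura and CSF, with exact binomial intervals. Ngp or Camp was found in 74.4% of dural and 20.4% of CSF granulocytes, and Isg15 or Ifit3 in 10.0% and 60.0%.

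Of 15 listed type I interferon response genes, 5 were measured between dura and CSF granulocytes, 4 of them at least 2-fold lower in dura and 1 higher, with a median log2 ratio of -4.20. The shares over all 803 genes tested were 39.5% lower and 10.8% higher, with a median of -0.64. Isg15, a ubiquitin-like modifier, stood at 36.7 CPM in dura and 2286 in CSF (62.3-fold lower, 21.1 to 304) and was found in 2 of 36 dural and 45 of 81 CSF cells. Ifit3, which binds foreign RNA with its family, stood at 85.6 CPM in dura and 1570 in CSF (18.3-fold lower, 8.70 to 46.4), in 5 of 36 dural and 50 of 81 CSF cells. Oas1a, a sensor of double-stranded RNA, stood at 318 CPM in dura and 1759 in CSF (5.53-fold lower), and its relative Oasl at 12.2 and 268 (21.9-fold lower). Ifitm3, which blocks viral entry, was the member that was higher, at 624 CPM in dura and 89.5 in CSF (6.97-fold). Ifitm3 was also higher in dura in other cells, with log2 ratios of 1.72 in CD4 Tc, 2.19 in myeloid1 and 1.05 in myeloid3. In granulocytes its log2 ratio was 2.80.

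Other cells of these libraries were measured for the same genes. Isg15 stood at 32.4 CPM in dural and 37.0 in CSF CD4 T cells, and at 264 in dural and 121 in CSF cells of cluster myeloid3. Oas1a stood at 7.55 and 9.25 CPM in dural and CSF CD4 T cells, and Ifit3 at 26.7 and 102 in dural and CSF myeloid3 cells. Oas1a in myeloid3 stood at 14.8 CPM in dura and 33.9 in CSF. In the CSF, 21 of 81 granulocytes took at least 1% of their UMIs from the list, with a highest share of 4.06%. No dural cell did (highest 0.701%), whereas 1 of 5 pial cells did, at 1.57% of its 445 UMIs. Of the 21 CSF cells 7 had under 10% marker UMIs, as had 27 of all 81. The single CNS granulocyte took 6.43%: Isg15 stood at 44606 CPM in it, from 43 UMIs, against 23.3 in CNS CD4 T cells. Isg15 stood at 364 CPM in the pial, 132 in the blood and 0 in the choroid plexus granulocytes.

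**Figure D5:**
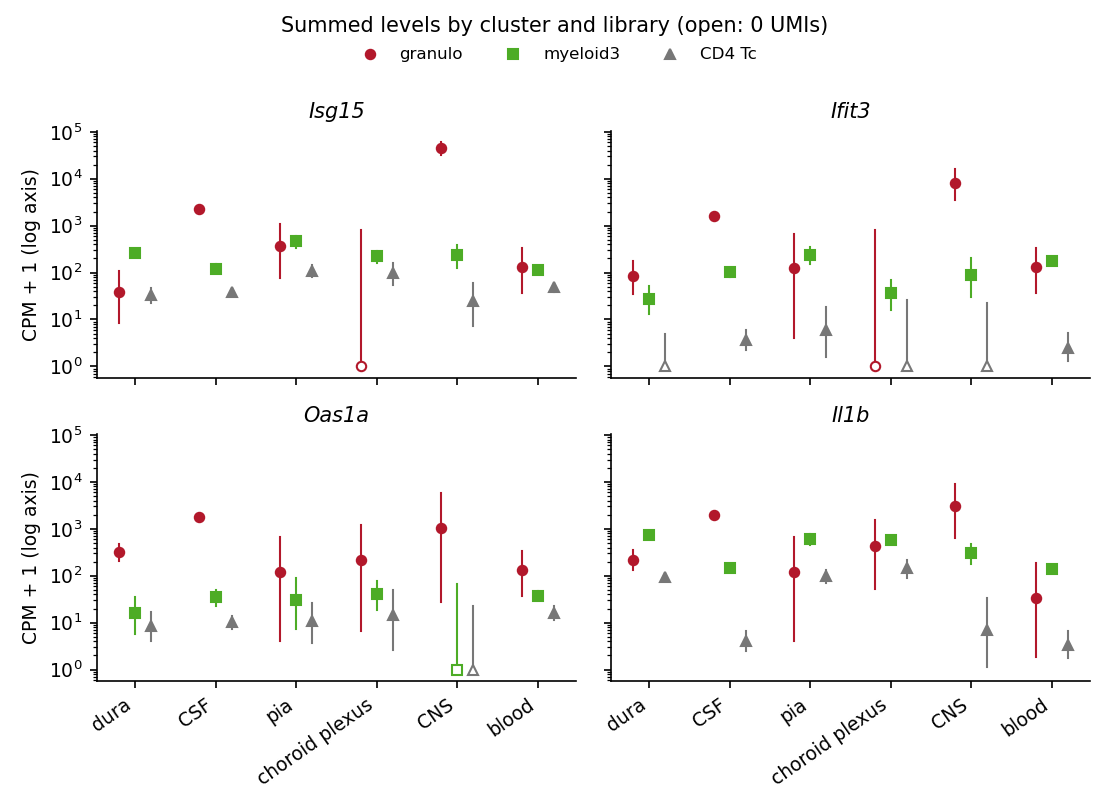
Summed levels of Isg15, Ifit3, Oas1a and Il1b by compartment in granulo, myeloid3 and CD4 Tc cells, in CPM plus 1 on a log axis, with exact Poisson intervals and open symbols for 0 UMIs. Isg15 in granulo cells stood at 36.7 CPM in dura, 2286 in CSF and 44606 in the 1 CNS cell.

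The promoters of Ifit3 and Oas1a are shown because interferon acts on such genes through a known response element. Capitals mark matches to 2 copies of GAAA with any 2 bases between them, or of TTTC on the other strand, which 3.41% of the 33469 RefSeq GRCr8 promoters of 250 bases held. The window of Ifit3 (chr1:241527076-241527325, plus strand) held 1 match and that of Oas1a (chr12:41330216-41330465, plus strand) 2 that overlap. Of the 15 interferon genes listed, 9 had a promoter in the table and 7 of these held a match.
Ifit3: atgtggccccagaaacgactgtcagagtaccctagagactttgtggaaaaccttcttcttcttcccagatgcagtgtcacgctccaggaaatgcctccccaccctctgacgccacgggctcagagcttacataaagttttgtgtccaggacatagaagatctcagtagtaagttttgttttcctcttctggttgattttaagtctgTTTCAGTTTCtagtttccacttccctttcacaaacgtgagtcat
Oas1a: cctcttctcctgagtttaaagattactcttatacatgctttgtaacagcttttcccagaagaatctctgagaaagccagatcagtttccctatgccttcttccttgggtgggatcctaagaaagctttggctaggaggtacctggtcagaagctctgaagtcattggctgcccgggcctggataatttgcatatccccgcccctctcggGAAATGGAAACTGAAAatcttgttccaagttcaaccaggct

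Inflammatory genes were mixed, with 2 of 5 measured genes higher and 2 lower in dura. Over all 803 genes tested 10.8% were higher and 39.5% lower, so the count of lower genes lay near that share. Il1b, the precursor of interleukin 1 beta, stood at 220 CPM in dura and 1968 in CSF granulocytes (8.94-fold lower, 5.51 to 15.4). In other cells of the same libraries Il1b ran the opposite way, at 744 CPM in dural and 142 in CSF myeloid3 cells. Ccl3, a chemokine for leukocytes, was higher, at 355 CPM in dura and 79.5 in CSF granulocytes, as was Osm, oncostatin M, at 245 and 79.5. Both were also higher in dura in other cells: Ccl3 stood at 1111 CPM in dural and 142 in CSF myeloid3 cells, and at 84.1 and 27.2 in CD4 T cells, and Osm at 130.4 and 5.21 in myeloid3 cells. Of 7 measured genes of the dissociation and stress list, 1 was higher and 4 lower in dura, beside the same shares over all genes. Among the lower was Junb, at 379 CPM in dura and 1203 in CSF.

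RNA of other cell types was present in both groups and differed between them. At least 1 UMI of the macrophage list was found in 32 of 36 dural granulocytes (median 3 UMIs, highest 182) and in 51 of 81 CSF granulocytes (median 1, highest 7), and of the class II list in 30 of 36 and 31 of 81. Apoe stood at 3388 CPM in dural and 815 in CSF granulocytes and at 1450 and 458 in the CD4 T cells of these libraries. In the other direction Ttr, transthyretin of the choroid plexus, had 0 UMIs in dural granulocytes and stood at 33495 CPM in CSF granulocytes, against 0 and 20695 in CD4 T cells. Haemoglobin Hba-a2 stood at 379 CPM in dura and 8269 in CSF granulocytes. The T cell list was found in 0 of 36 dural and 2 of 81 CSF granulocytes. The part of this RNA in the differences above was not tested.

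Set beside the cells of cluster myeloid3 of the same library, granulocytes differed in many genes, which describes how the clusters were drawn and is no test. In dura 118 of 2397 genes were at least 2-fold higher (4.92%) and 1462 lower (61.0%), a split of 231 and 933 under another scaling (TMM), and in CSF 246 of 3821 were higher (6.44%) and 1378 lower (36.1%). Fn1, a monocyte gene for fibronectin, stood at 0 CPM in dural granulocytes and 607 in dural myeloid3 cells. For the interferon list, in CSF 6 of 11 measured genes were higher and 1 lower in granulocytes, with Oas1a 52.0-fold higher (34.3 to 81.7), and in dura 2 of 6 were higher and 3 lower.

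The 12 blood cells of the cluster were unlike the rest. S100a9 stood at 3674 CPM in them and 62.4 in blood myeloid3 cells, and S100a8 at 4700 and 289. Ngp, Retnlg and Mmp8 had 0 UMIs. Lyz2, lysozyme, stood at 59935 CPM. Genes of the monocyte list were found in 12 of 12 cells, against 7 of 36 dural and 12 of 81 CSF granulocytes. Class II genes were found in 9 of 12 blood cells, against 30 of 36 dural and 31 of 81 CSF granulocytes, and so did not set blood apart from dura.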

How the data were processed

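Droplet libraries (10x chemistry version 2, target 6000 to 10000 cells) were made from 6 rat compartments, 1 library each. The authors deposited raw UMI counts per gene and barcode, made with Cell Ranger 3.1.0 per the submitters' processing notes (3.0.2 per the file headers), with cluster and tissue names for 21187 of 26301 barcodes. Features sharing a symbol were summed, giving 28760 symbols from 32883 features.

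Counts were summed per compartment and cluster and scaled to CPM. Ratios carry exact conditional binomial intervals, with at least 20 UMIs over both sides and a call at 2-fold. No p-value was computed, since each group is 1 library. The planned base was blood, which had under 20 granulocytes, so CSF, the compartment with the most, was used. The members and gene lists were chosen with earlier results of these data known. Genes named are the 12 highest and 12 lowest by the interval bound nearest to no change, plus list members, and examples were taken from these. Doublets were scored with scrublet (scanpy 1.11.5), which marked 0 granulocytes; it marked 1.41% of dural and 0.0317% of CSF cells, too few in CSF to have worked. Alternatives included TMM scaling (edgeR 4.0.16, R 4.3.3), other minimums, equal weight per cell and thinning depth. The calculations were tested on simulated data. Python 3.11.15, numpy 2.4.6, pandas 2.3.3 and scipy 1.17.1 were used. The mouse libraries were not used here. A measured gene of the mature neutrophil list is counted but not reported here by name or plotted.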

Additional observations from a re-analysis of the deposited data

Results flagged for a closer look

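Barcodes without a cluster name also held granulocyte transcripts. At least 5 marker UMIs were found in 10 of 241 such dural barcodes and 16 of 4348 such CSF barcodes, which no comparison used. Annotated cells of other clusters also reached this number, 43 in dura and 29 in CSF. Of the barcodes without a name, 0 in dura and 1 in CSF took at least 10% of their UMIs from the markers. The unannotated CSF barcodes had a median mitochondrial share of 32.0%.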

How the results depend on the processing

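No paired analysis was possible because each compartment has 1 library, and for the same reason no replicate could be left out. Of the ratios of single genes under the alternatives, 916 kept their side of the 2-fold call, 24 passed it and 25 lost it. The sign changed in 20 of the 965, in 12 genes, and none of these was past 2-fold in either setting. The log2 ratio of dura over CSF lay between 7.73 and 8.91 for Ngp and between -7.42 and -4.73 for Isg15. Between dura and CSF granulocytes the counts of 87 higher and 317 lower genes became 167 and 184 when centred on the median gene, 41 and 142 of 335 with at least 50 UMIs (12.2% and 42.4%), 366 and 886 of 2607 with at least 1 UMI (14.04% and 34.0%), and 154 and 199 scaled without S100a8 and S100a9. In cells with at least 10% marker UMIs, a choice made after seeing the data like the scaling without S100a8 and S100a9, 186 were lower. The late granule median of 0.91 became 1.10 with TMM, 2.03 with equal weight per cell, 1.55 centred and 1.45 without S100a8 and S100a9, but 0.34 in cells with at least 10% marker UMIs and 0.54 in cells at or above the CSF minimum of UMIs. The inflammatory median of 0.69 became -3.16 with at least 50 UMIs, where 1 gene was left. TMM gave 231 higher and 933 lower genes for dural granulocytes over myeloid3. The granulocyte share of CSF was 1.08% of all barcodes and 1.71% counting cells with 10% markers, and that of blood 0.189% with at least 5 marker UMIs and 0% with 10% markers. Thinned to 1000 UMIs, which left out 12 dural and 36 CSF cells, Ngp or Camp was found in 87.3% of dural and 41.9% of CSF granulocytes, Retnlg or Mmp8 in 73.8% and 62.1%, and Isg15 or Ifit3 in 1.63% and 62.8%. Marker CPM outside the cluster, in CD4 T cells only, was 100.3 in dura, 42.1 in CSF, 41.3 in pia, 0 in CNS and 14.5 in blood. The cause of these changes was not tested.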

Other observations

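Granulocyte marker transcripts were also counted in annotated cells outside the cluster. The 6 markers summed to 281 CPM there in dura, 148 in CSF, 129 in blood, 66.1 in pia, 17.5 in choroid plexus and 5.95 in CNS. At least 5 marker UMIs were found in 43 such dural, 29 CSF and 36 blood cells, and none of these took 10% of its UMIs from the markers.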
